A study of Mus musculus with 9 samples.

Results

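The ATF4 and endoplasmic reticulum (ER) stress response was followed through 44 of the 27998 genes measured in mouse ascites cells: 26 targets and partners of the transcription factor ATF4, and 18 ER chaperones and genes of ER-associated degradation. The genes were taken as the pathway's list, not by a limit on their level, and each had a row in the count matrix. The data came from 1 single-cell library of cells in ascites, fluid of the peritoneal cavity, from the B6_WT genotype in a model made with ID8-Def29/Vegf, an established mouse ovarian cancer line that carries a beta-defensin and a vascular growth factor. No treatment was recorded for this library, and how many mice it stands for is not given in the sources used here. The series has 8 bulk libraries as well, 4 of cells given the iron chelator deferiprone for 12 h and 4 of cells given vehicle, and these were not analysed here, so nothing below bears on the drug. Within the ascites library 2 classes were compared. Tumour-like cells were those with at least 3 unique molecular identifiers (UMIs, the tags that count single RNA molecules) over Krt8, Krt18, Krt19, Wt1 and Upk3b and at most 1 over C1qa, C1qb and C1qc, and macrophages met the same 2 limits with the gene sets exchanged.

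ATF4 is made when kinases phosphorylate the translation factor eIF2 under amino acid shortage, unfolded protein in the ER, haem shortage or double-stranded RNA, a pathway called the integrated stress response. It switches on genes for amino acid synthesis and uptake, for the pro-apoptotic factor CHOP (Ddit3) and for feedback regulators that bring translation back. Unfolded protein in the ER also activates ATF6 and, through IRE1, XBP1, and these raise chaperones, disulfide isomerases and the machinery that returns misfolded proteins to the cytosol for degradation. Both branches are used at rest by cells that secrete or import much protein, and macrophages and tumour cells are both known to use them.

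The rules selected 3660 tumour-like cells and 1076 macrophages out of 6442 cells kept. Genes outside the rules matched the names. The macrophage genes Csf1r, Adgre1, Cd68, Mrc1, Ms4a7 and Lyz2 summed to 70.3 CPM (UMIs per 1000000 UMIs of the class) in tumour-like cells and 16743 CPM in macrophages, and the epithelial or mesothelial genes Krt7, Upk1b, Msln, Epcam and Muc16 to 81.6 CPM in tumour-like cells and 7.35 CPM in macrophages. Krt7, Upk1b, Msln and Muc16 are shared by mesothelium, and Epcam had 24 UMIs in tumour-like cells and 0 in macrophages. A tumour cell and a mesothelial cell thus cannot be told apart by these genes. Tumour-like cells were deeper, with a median of 5007 UMIs against 1639.5 in macrophages, and the classes held 19994488 and 1905866 UMIs. RNA free in the suspension was estimated at 4.95% of UMIs in tumour-like cells and 11.5% in macrophages. With 1 library there are no replicates and no tests. Brackets after a level hold the exact Poisson 95% interval and after a ratio the exact conditional binomial 95% interval, and both cover counting error only. The levels are tag counts not scaled by gene length, so no order between genes is read from them.

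The ATF4 genes split in 2 directions between the classes, and the ER genes leaned toward macrophages. Of the 26 ATF4 genes 21 had the 20 UMIs over both classes that were asked for a ratio. Among them 8 were at least 2-fold higher in tumour-like cells (38.1%), against 33.7% of all 11858 features, and 4 were at least 2-fold lower in tumour-like cells (19.0%), against 13.2% of all features. Both shares lay near those of all features. Of the 18 ER genes, all with enough UMIs, 0 were 2-fold higher in tumour-like cells and 5 were 2-fold lower (27.8%). The median ratio of tumour-like cells over macrophages was 1.69 for the ATF4 genes, 0.708 for the ER genes and 1.39 for all features. Summed over each list, the ATF4 genes gave 811 CPM in tumour-like cells and 859 CPM in macrophages, a ratio of 0.944 (0.897 to 0.994). The ER genes gave 919.8 CPM in tumour-like cells and 1347 CPM in macrophages, a ratio of 0.683 (0.655 to 0.712). These sums are over cells of all depths. With both classes held to cells of 1000 to 3000 UMIs, the ER sum had a ratio of 0.875 (0.813 to 0.94). The ATF4 sum there had 1.04 (0.954 to 1.13), an interval that includes 1. Because the median feature was 1.39-fold higher in tumour-like cells, 0.47 on the log2 scale, ratios near 1 turn below 1 when they are read relative to it, and 22.8% of all features are then 2-fold higher and 19.1% 2-fold lower in tumour-like cells. This held for Atf4 (0.817 after the shift), Psph (0.863), Mthfd2 (0.739), Slc3a2 (0.942), Xbp1 (0.90), Pdia4 (0.884) and Syvn1 (0.823), while no other member that had a ratio changed sides.

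**Figure D1:**
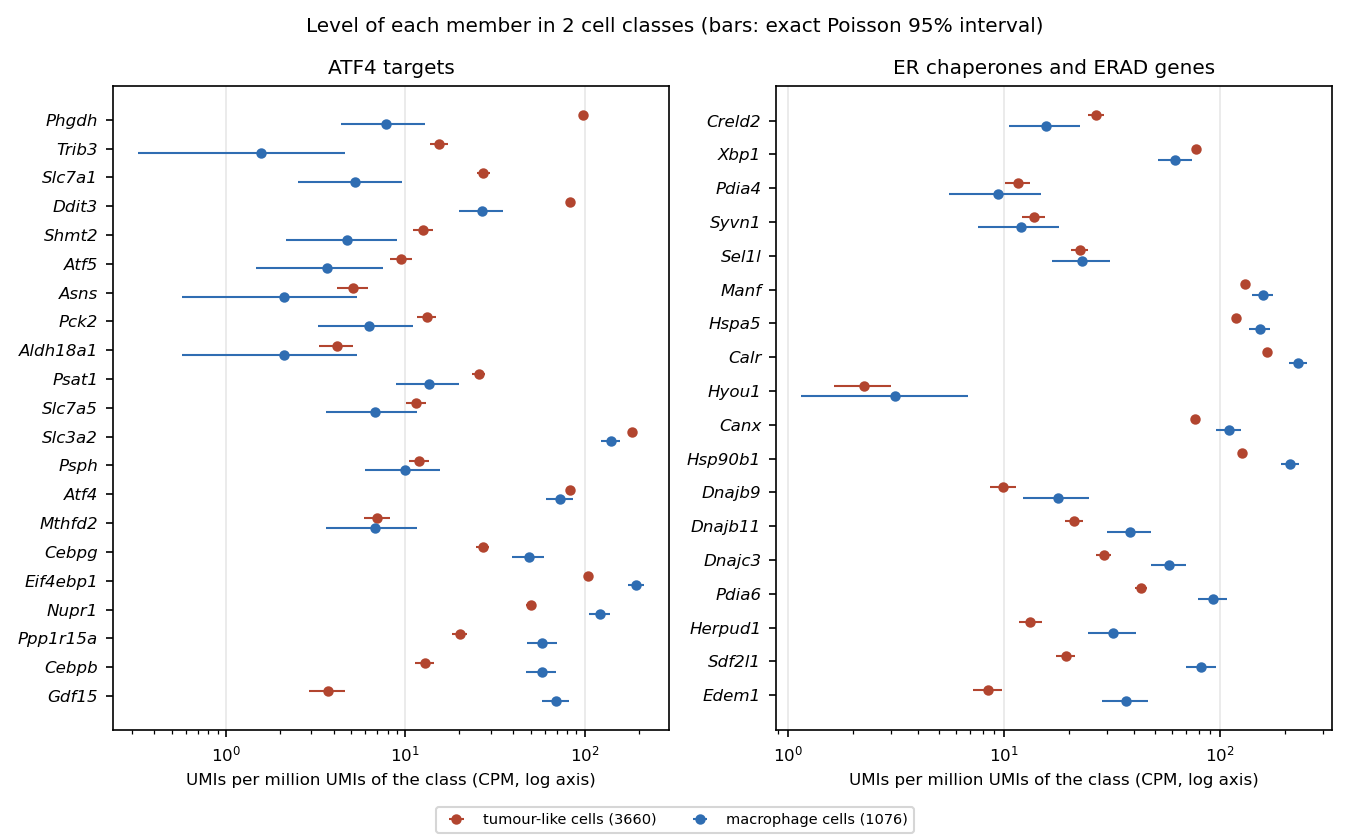
The level of each member with at least 20 UMIs is plotted in CPM on a log axis, in tumour-like cells (red) and macrophages (blue), with exact Poisson 95% intervals for counting error. The ATF4 targets run from Phgdh, 12.5-fold higher in tumour-like cells, to Gdf15, 18.7-fold lower, while the ER genes run from Creld2, 1.70-fold higher, to Edem1, 4.35-fold lower.

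Among the transcription factors, the messenger of Atf4 itself lay close in both classes. It stood at 82.8 CPM (78.9 to 86.9) in tumour-like cells and 72.9 CPM (61.3 to 86.1) in macrophages, a ratio of 1.14 (0.955 to 1.36) whose interval includes 1, and its protein, which is set by translation, was not measured. Ddit3, which encodes the pro-apoptotic factor CHOP, was 3.12-fold higher (2.36 to 4.21), with 83.5 CPM (79.5 to 87.6) in tumour-like cells and 26.8 CPM (19.9 to 35.2) in macrophages. Free RNA alone would give 10.5 CPM of Ddit3 in macrophages. In the annotation Ddit3 overlaps another record of the same name on its strand and Mars on the other, so its count may take in reads of those. Atf5, a factor of the same family as ATF4, was 2.59-fold higher (1.23 to 6.52), with 190 and 7 UMIs in tumour-like cells and macrophages, where free RNA would give 1.51 of 3.67 CPM. Trib3, a pseudokinase that ATF4 induces and that restrains ATF4, had 15.5 CPM (13.8 to 17.3) in tumour-like cells. In macrophages it had 3 UMIs, or 1.57 CPM (0.325 to 4.6), where free RNA would give 1.51 CPM, so that level is not read as expression and the ratio of 9.82 (3.33 to 47.9) as no more than that of the counts.

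The C/EBP factors, which pair with ATF4 on DNA, ran the other way. Cebpb, also a driver of inflammatory genes in myeloid cells, was 4.47-fold lower (3.54 to 5.61) in tumour-like cells, with 12.9 CPM (11.4 to 14.6) in tumour-like cells and 57.7 CPM (47.4 to 69.6) in macrophages. Cebpg, the usual partner of ATF4 in the control of amino acid genes, was 1.8-fold lower (1.43 to 2.25), with 27.1 CPM in tumour-like cells and 48.8 CPM in macrophages. Nupr1, a small chromatin protein induced under stress, stood at 50.4 CPM (47.3 to 53.6) in tumour-like cells and 122 CPM (107 to 138) in macrophages and was 2.42-fold lower (2.09 to 2.79). In cells of 1000 to 3000 UMIs the call ended, with a ratio of 0.99 (0.775 to 1.26).

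Both members that act on translation itself were lower in tumour-like cells. Ppp1r15a encodes GADD34, the phosphatase subunit that removes the phosphate from eIF2 and so ends the response, and it had 20.1 CPM (18.2 to 22.2) in tumour-like cells and 58.2 CPM (47.9 to 70.1) in macrophages, 2.9-fold lower (2.33 to 3.58). In cells of 1000 to 3000 UMIs it was 1.85-fold lower (1.23 to 2.83). Eif4ebp1, the repressor of cap-dependent translation, had 104 CPM (99.7 to 109) in tumour-like cells and 193 CPM (174 to 214) in macrophages, 1.85-fold lower (1.66 to 2.07).

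The largest ratio toward tumour-like cells among the members was that of the first enzyme of serine synthesis. Phgdh, the enzyme that draws the pathway off from glycolysis, had 98.1 CPM (93.8 to 103) in tumour-like cells from 1961 UMIs. In macrophages it had 7.87 CPM (4.41 to 13) from 15 UMIs, below the 11.7 CPM that free RNA alone would give, so the ratio of 12.5 (7.54 to 22.3) is that of the counts and no macrophage expression is read from it. Psat1, the next enzyme, was 1.88-fold higher (1.27 to 2.91), with 25.7 CPM in tumour-like cells and 13.6 CPM in macrophages. Psph, the last step, had 12 CPM in tumour-like cells and 9.97 CPM in macrophages, a ratio of 1.2 (0.751 to 2.03). Of the mitochondrial enzymes that pass the serine carbon on to folate, Shmt2 was 2.67-fold higher (1.38 to 5.9) and Mthfd2 had a ratio of 1.03 (0.581 to 1.98), with 7.0 CPM in tumour-like cells and 6.82 CPM in macrophages. The last of these, Aldh1l2, had 2 UMIs in tumour-like cells and 0 in macrophages.

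Amino acid uptake and synthesis genes were higher in tumour-like cells or close in both classes. Slc7a1, the carrier of arginine and lysine, was 5.19-fold higher (2.8 to 10.9), with 27.3 CPM (25 to 29.6) in tumour-like cells and 5.25 CPM (2.52 to 9.65) in macrophages. Free RNA would give 2.64 of that CPM in macrophages, and with free RNA subtracted the ratio was 9.31. Estimated from barcodes of 100 to 200 UMIs, which held more UMIs, free RNA of Slc7a1 in macrophages would be 0.574 CPM. Slc3a2, the heavy chain that escorts several amino acid carriers to the membrane, was 1.31-fold higher (1.16 to 1.49), with 183 CPM (177 to 189) in tumour-like cells and 140.1 CPM (124 to 158) in macrophages. Its leucine-carrying partner Slc7a5 had 11.6 CPM in tumour-like cells and 6.82 CPM in macrophages, a ratio of 1.69 (0.971 to 3.23). Asns, asparagine synthetase and a classic ATF4 target, had 102 and 4 UMIs in tumour-like cells and macrophages, and its ratio of 2.43 (0.921 to 9.09) has an interval that includes 1. With free RNA subtracted it was 4.43, where free RNA would give 1.13 CPM in macrophages. From barcodes of 100 to 200 UMIs free RNA of Asns there would be 0.465 CPM. Pck2, the mitochondrial PEP carboxykinase, had 13.2 CPM in tumour-like cells and 6.3 CPM in macrophages. Its ratio of 2.1 (1.18 to 4.11) was the closest above 2 in the list. Thinning to 1000 UMIs gave 5.09, but only 0.316% of macrophages then held a Pck2 UMI. Aldh18a1, the first enzyme of proline synthesis, lay just under 2, at 1.98 (0.744 to 7.43).

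Several targets often used to report the response were scarcely seen. Chac1, which degrades glutathione, and Cth, which makes cysteine, had 13 UMIs each in the 3660 tumour-like cells, and Pycr1, the last enzyme of proline synthesis, had 10. Stc2, a secreted glycoprotein, had 1. All 4 had 0 UMIs in macrophages, where 0 UMIs allow up to 3 counts, or 1.57 CPM, so no ratio was formed.

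Gdf15, a secreted hormone of the TGF-beta family that acts on appetite, went furthest toward macrophages. It had 3.7 CPM (2.91 to 4.65) in tumour-like cells from 74 UMIs and 69.3 CPM (57.9 to 82.1) in macrophages from 132 UMIs, 18.7-fold lower (14 to 25.2). After each cell had been thinned to 1000 UMIs, 0.388% of tumour-like cells and 5.05% of macrophages held a Gdf15 UMI.

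The ATF4 binding letters were looked up in promoter windows, 250 bases before to 50 after each gene's start, from RefSeq (GRCm38.p6), which held 38 of the 44 members. The C/EBP-ATF response element, searched as TGATGNAA on both strands, was found in 6 of 22 ATF4 genes with a window, in 1 of 16 ER genes (Herpud1) and in 4.51% of all 27025 genes. The matches are shown because they fall in genes of both directions: Trib3 and Pck2 were higher in tumour-like cells over all depths, while Nupr1 and Herpud1 were lower. Each is written 5′ to 3′ on the strand on which it reads, with the fixed letters in capitals, and no match is taken for a bound site.
Trib3, chr2:152344039-152344046, plus strand: TGATGtAA
Asns, chr6:7693225-7693232, minus strand: TGATGaAA
Chac1, chr2:119351049-119351056, minus strand: TGATGcAA
Nupr1, chr7:126625573-126625580, plus strand: TGATGcAA
Pck2, chr14:55540163-55540170, minus strand: TGATGtAA
Pycr1, chr11:120643844-120643851, minus strand: TGATGcAA
Herpud1, chr8:94386317-94386324, minus strand: TGATGcAA

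The 250 bases before the start of Nupr1, an ATF4 gene with this element, are given on the gene's strand. The element is in capitals and reads on the opposite strand.
Nupr1, chr7:126625471-126625720, minus strand: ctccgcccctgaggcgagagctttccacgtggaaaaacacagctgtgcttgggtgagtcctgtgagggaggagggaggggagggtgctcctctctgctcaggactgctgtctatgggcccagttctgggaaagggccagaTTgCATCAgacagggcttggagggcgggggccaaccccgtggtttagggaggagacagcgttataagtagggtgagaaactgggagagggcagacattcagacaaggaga

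The regulators and secreted factors of the ER list differed from one another. Xbp1, whose messenger IRE1 splices to make the active factor, was 1.25-fold higher (1.04 to 1.52), with 78.1 CPM (74.2 to 82) in tumour-like cells and 62.4 CPM (51.7 to 74.7) in macrophages, and spliced and unspliced forms cannot be told apart in these counts. Creld2, a secreted ER-resident protein, was 1.7-fold higher (1.18 to 2.54), with 26.8 CPM in tumour-like cells and 15.7 CPM in macrophages. Manf, a neurotrophic factor kept in the ER by HSPA5, had 131 CPM (126 to 136) in tumour-like cells and 158 CPM (141 to 177) in macrophages, 1.21-fold lower (1.07 to 1.36). Its gene record overlaps Rbm15b on the same strand, and its count may take in reads of that gene.

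Over all depths the chaperones with enough UMIs to place were lower in tumour-like cells. Hspa5, which encodes BiP, the ER member of the HSP70 family that holds the stress sensors inactive, had 119 CPM (115 to 124) in tumour-like cells and 153 CPM (136 to 172) in macrophages, 1.28-fold lower (1.13 to 1.45). This direction turned in cells of 1000 to 3000 UMIs, where its ratio was 1.19 (0.976 to 1.44), and 1.25 (1.03 to 1.53) within the 10 large clusters described below. Hsp90b1, the ER member of the HSP90 family, was 1.66-fold lower (1.49 to 1.85), with 127 CPM (122 to 132) in tumour-like cells and 211 CPM (191 to 233) in macrophages. The lectin chaperones, which hold newly made glycoproteins, were close to that: Calr had 166 CPM in tumour-like cells and 230.3 CPM in macrophages, 1.39-fold lower (1.26 to 1.54), and Canx had 77.3 CPM in tumour-like cells and 110.2 CPM in macrophages, 1.43-fold lower (1.23 to 1.65). Hyou1, a nucleotide exchange factor for HSPA5, had 45 UMIs in tumour-like cells and 6 in macrophages, too few to place.

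The co-chaperones that direct HSPA5 to its clients differed more. Sdf2l1, which works with DNAJB11 to keep clients in the HSPA5 cycle, was 4.23-fold lower (3.49 to 5.11), with 19.4 CPM (17.5 to 21.4) in tumour-like cells and 81.9 CPM (69.5 to 95.8) in macrophages. Dnajb11 itself was 1.81-fold lower (1.39 to 2.32), with 21.2 CPM in tumour-like cells and 38.3 CPM in macrophages. Dnajb9, a repressor of IRE1 that acts through HSPA5, had 9.95 CPM in tumour-like cells and 17.8 CPM in macrophages, 1.79-fold lower (1.21 to 2.59). After thinning to 1000 UMIs its ratio was 1.03, with a Dnajb9 UMI in only 1.16% of macrophages. Dnajc3, also an inhibitor of the eIF2 kinases, was 2.0-fold lower (1.62 to 2.46) and lay on the 2-fold line.

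The disulfide isomerases parted. Pdia6 was 2.14-fold lower (1.81 to 2.52), with 43.3 CPM (40.5 to 46.3) in tumour-like cells and 92.9 CPM (79.7 to 108) in macrophages, while Pdia4 had 11.6 CPM in tumour-like cells and 9.44 CPM in macrophages, a ratio of 1.23 (0.76 to 2.11) whose interval includes 1. The degradation genes parted too. Edem1, the lectin that picks misfolded glycoproteins for export, was 4.35-fold lower (3.24 to 5.77), with 8.45 CPM (7.23 to 9.83) in tumour-like cells and 36.7 CPM (28.6 to 46.4) in macrophages. Herpud1, which organises the membrane complex, was 2.41-fold lower (1.79 to 3.19), with 13.3 CPM in tumour-like cells and 32 CPM in macrophages. In the core of that complex the adaptor Sel1l had a ratio of 0.975 (0.714 to 1.36) and the ubiquitin ligase Syvn1 of 1.14 (0.747 to 1.83), both with intervals that include 1.

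**Figure D2:**
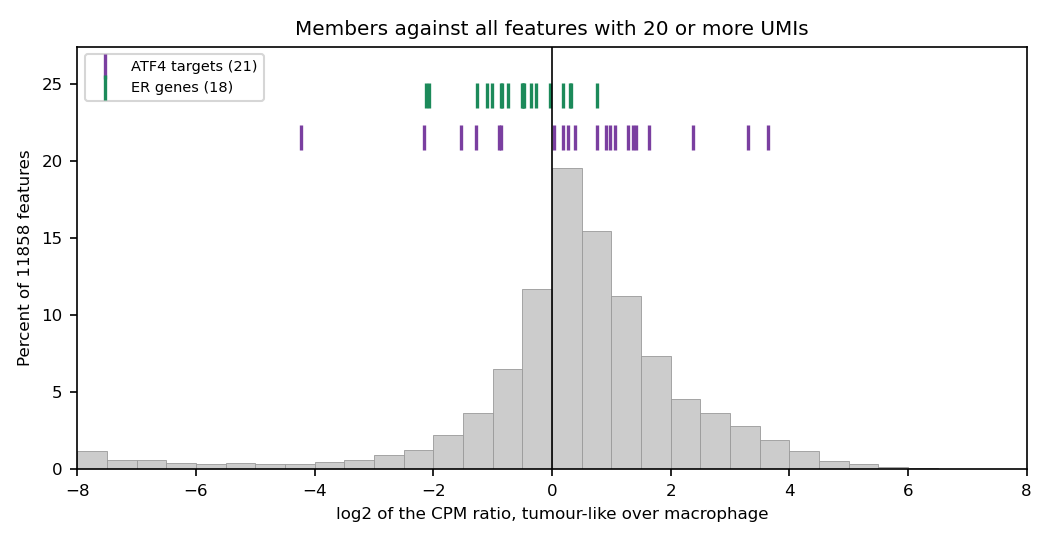
Grey bars give the percent of 11858 features in each range of the log2 CPM ratio of tumour-like cells over macrophages, with features beyond 8 on either side counted in the end bars, and ticks mark the 21 ATF4 targets and 18 ER genes that had a ratio. The ATF4 ticks spread from -4.23 to 3.64, while the ER ticks lie between -2.12 and 0.77 and 14 of them are under 0.

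Many of the ER genes shared a promoter element. The ER stress response element, which ATF6 and XBP1 are known to use with the factor NF-Y, was searched as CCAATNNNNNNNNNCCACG on both strands. It was found in 8 of the 16 ER genes with a window, in 0 of the 22 ATF4 genes and in 37 of 27025 genes (0.137%). The ER list was taken as genes of the pathway in which these factors act, so its share describes the list and tests nothing. The 9 matches are shown because these genes are taken up again below, with the fixed letters in capitals, 5′ to 3′ on the strand on which they read. They began between 212 and 44 bases before the start.
Hspa5, chr2:34772025-34772043, plus strand: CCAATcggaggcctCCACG
Pdia6, chr12:17266491-17266509, plus strand: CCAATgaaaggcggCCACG
Creld2, chr15:88819520-88819538, minus strand: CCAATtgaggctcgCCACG
Dnajc3, chr14:118937827-118937845, plus strand: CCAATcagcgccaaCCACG
Hsp90b1 (from -212), chr10:86705638-86705656, minus strand: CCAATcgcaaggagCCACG
Hsp90b1 (from -107), chr10:86705533-86705551, plus strand: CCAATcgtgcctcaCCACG
Syvn1, chr19:6046532-6046550, plus strand: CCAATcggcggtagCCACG
Calr, chr8:84847075-84847093, plus strand: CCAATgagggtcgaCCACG
Canx, chr11:50325800-50325818, minus strand: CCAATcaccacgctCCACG

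The shorter variant ERSE-II, in which ATTGG and CCACG stand 1 base apart, was found in 2 ER genes, in 0 ATF4 genes and in 12 of 27025 genes (0.0444%).
Herpud1, chr8:94386377-94386387, plus strand: ATTGGgCCACG
Dnajb11, chr16:22857852-22857862, plus strand: ATTGGcCCACG

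The letters TGACGTGG, searched as the unfolded protein response element, were found in 0 members and in 0.714% of genes, which says only that these letters are not in these windows. The 250 bases upstream of Hspa5, Hsp90b1 and Herpud1 are given whole because they hold 1 ER stress response element, 2 of them on opposite strands, and the shorter variant beside an ATF4 element. The ATF4 element of Herpud1 and the second element of Hsp90b1 are in capitals as they read on the gene's own strand.
Hspa5, chr2:34771840-34772089, plus strand: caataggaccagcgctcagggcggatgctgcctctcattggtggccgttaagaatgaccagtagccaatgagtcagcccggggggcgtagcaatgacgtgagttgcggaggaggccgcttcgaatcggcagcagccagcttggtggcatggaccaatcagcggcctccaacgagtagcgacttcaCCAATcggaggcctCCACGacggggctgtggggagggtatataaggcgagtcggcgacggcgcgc
Hsp90b1, chr10:86705445-86705694, minus strand: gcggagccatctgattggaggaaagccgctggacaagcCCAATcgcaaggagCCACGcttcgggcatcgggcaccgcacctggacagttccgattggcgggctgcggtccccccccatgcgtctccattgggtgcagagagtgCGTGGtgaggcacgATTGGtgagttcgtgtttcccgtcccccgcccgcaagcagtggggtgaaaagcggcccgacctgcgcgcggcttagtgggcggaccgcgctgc
Herpud1, chr8:94386179-94386428, plus strand: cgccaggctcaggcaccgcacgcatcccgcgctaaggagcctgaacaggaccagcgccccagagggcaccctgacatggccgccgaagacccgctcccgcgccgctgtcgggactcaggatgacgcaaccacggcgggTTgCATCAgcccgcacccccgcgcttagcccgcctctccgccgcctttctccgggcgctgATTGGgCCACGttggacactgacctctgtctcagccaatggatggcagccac

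The levels of several members differed with the depth of the cell, which also differed between the classes. Tumour-like cells were split by their UMIs into 476 cells with 1000 to 3000, 1821 with 3001 to 6000 and 1313 with more than 6000. From the low to the high range Hspa5 stood at 191 CPM (165 to 219.8), 121 CPM (113 to 129) and 112 CPM (106 to 118). Xbp1 stood at 110.4 CPM (90.7 to 133), 79.3 CPM (73.3 to 85.7) and 74.1 CPM (69 to 79.4). The shallow cells thus held 1.70 times the Hspa5 of the deep cells (1.45 to 1.99) and 1.49 times the Xbp1. Other ER genes with an interval above 1 were Dnajb9 at 2.1 (1.17 to 3.56), Dnajc3 at 1.62 (1.16 to 2.23), Pdia6 at 1.53 (1.15 to 2.01), Canx at 1.42 (1.15 to 1.73) and Hsp90b1 at 1.29 (1.09 to 1.51). Calr, at 0.983 (0.834 to 1.15), and Manf, at 1.11 (0.925 to 1.32), had intervals that include 1. The summed ER list was 1172 CPM in shallow cells and 908 CPM in deep cells, a ratio of 1.29 (1.21 to 1.37), and the summed ATF4 list had a ratio of 1.07 (1.0 to 1.15). The median over 10702 features was 1.07, and 4.8% of them were 2-fold higher in shallow cells, a limit that Dnajb9 and Nupr1 passed among the members. A further 5.71% were 2-fold lower in shallow cells, as was Aldh18a1 on 2 UMIs. The median share of mitochondrial UMIs was 3.95% in shallow cells and 3.42% in deep cells, and its part in these ratios was not tested.

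Among the ATF4 genes depth went with opposite differences. Ppp1r15a was 1.94 times as high in shallow cells as in deep cells (1.30 to 2.83). Psat1 ran the other way, at 17.1 CPM (9.94 to 27.3), 19.5 CPM (16.6 to 22.8) and 31.2 CPM (28 to 34.7) from the low to the high range, a ratio of 0.546 (0.314 to 0.888). Eif4ebp1 had a ratio of 0.776 (0.617 to 0.965). Ddit3, at 0.993 (0.781 to 1.25), and Phgdh, at 0.986 (0.795 to 1.21), had intervals that include 1. Nupr1 had a ratio of 2.47 (1.99 to 3.03), but this rested on few cells: without the tumour-like cells outside the 10 large clusters described below it was 1.01 (0.715 to 1.39). The same step left Hspa5 at 1.82 (1.54 to 2.13), Dnajb9 at 2.19 (1.2 to 3.76), Xbp1 at 1.57 (1.26 to 1.93) and Ppp1r15a at 1.94 (1.26 to 2.89). The cells behind the Nupr1 difference included a cluster of 53 led by Slpi, Mgp and Col1a2, of which 37 met the tumour-like rule. This cluster carried the fibroblast genes Col1a1, Col1a2, Col3a1, Dcn and Pdgfra, and also the epithelial or mesothelial genes Krt8, Krt7, Upk1b and Msln. Nupr1 stood at 683 CPM (569 to 813) in that cluster.

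**Figure D3:**
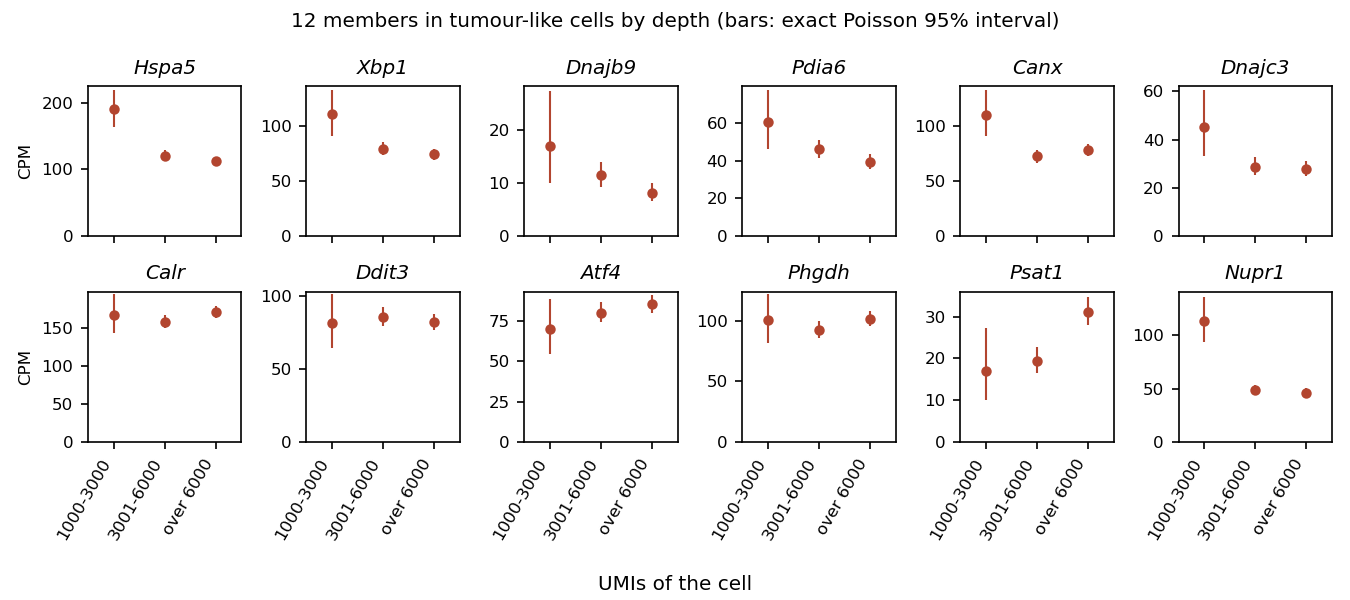
Levels of 12 members in tumour-like cells are plotted in CPM against the depth of the cell in 3 ranges, with exact Poisson 95% intervals. Hspa5, Xbp1, Dnajb9, Pdia6, Canx and Dnajc3 are highest in cells of 1000 to 3000 UMIs, Psat1 is highest in cells over 6000, and the intervals of Ddit3 overlap in all 3 ranges.

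With both classes held to cells of 1000 to 3000 UMIs, 476 tumour-like cells and 880 macrophages, the ER gap narrowed for some genes and stayed for others. The summed ER list had a ratio of 0.875 (0.813 to 0.94) there, and the summed ATF4 list 1.04 (0.954 to 1.13). Of all 7204 features counted there 31.6% were 2-fold higher in tumour-like cells and 16% were 2-fold lower. Of 16 ATF4 genes still counted 5 were 2-fold higher and 3 lower, and of 17 ER genes 1 was higher and 3 were lower. Canx had a ratio of 0.986 (0.769 to 1.26), Dnajc3 of 0.789 (0.538 to 1.14), Dnajb9 of 0.914 (0.471 to 1.72), Manf of 0.886 (0.716 to 1.09) and Dnajb11 of 0.699 (0.422 to 1.13), and like that of Hspa5 given above their intervals include 1. Within the 10 large clusters Hspa5 had 1.25 (1.03 to 1.53), an interval above 1. Pdia6, at 0.659 (0.479 to 0.897), remained under 1. Creld2, at 2.67 (1.52 to 4.82), and Xbp1, at 1.84 (1.39 to 2.46), stood further toward tumour-like cells than over all depths. Sdf2l1 at 0.274 (0.168 to 0.429), Edem1 at 0.235 (0.0967 to 0.498) and Herpud1 at 0.382 (0.185 to 0.729) kept their gap toward macrophages. Of the ATF4 genes, Ddit3 had 3.16 (2.14 to 4.74), Slc7a1 8.02 (3.52 to 21.4), Cebpb 0.282 (0.158 to 0.476), Eif4ebp1 0.455 (0.354 to 0.58) and Gdf15 0.060 (0.016 to 0.158). Slc7a5 had 1.04 (0.369 to 2.77) and Pck2 3.47 (1.51 to 8.64). Ppp1r15a, at 0.542 (0.353 to 0.813), was no longer 2-fold lower. Nupr1 had 0.99 (0.775 to 1.26) and, without cells outside the 10 large clusters, 0.392 (0.272 to 0.553).

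The members also varied within each class. Leiden clustering without the members or the rule genes gave 18 clusters, of which 8 held at least 200 tumour-like cells each and 2 held at least 200 macrophages each. Of the 21 ATF4 genes 9 were higher in each of the 8 tumour-like clusters than in both macrophage clusters, namely Ddit3, Trib3, Atf5, Psat1, Phgdh, Shmt2, Slc3a2, Slc7a1 and Pck2. That is 42.9%, against 38.9% of all 11858 features. A further 6 were lower in each (28.6%, against 15.7% of all features), namely Cebpb, Cebpg, Ppp1r15a, Nupr1, Gdf15 and Eif4ebp1. Of the 18 ER genes 0 were higher in each tumour-like cluster and 8 were lower in each (44.4%), namely Dnajb9, Sdf2l1, Herpud1, Edem1, Pdia6, Dnajc3, Dnajb11 and Hsp90b1. These counts compare point values, and for low genes such as Trib3 and Atf5 the intervals of clusters overlap. Depth was not matched: the tumour-like clusters had medians of 4046.5 UMIs or more, and the macrophage clusters of 1349 and 2189.5. In cells of 1000 to 3000 UMIs, pooled over clusters, the intervals of Dnajb9, Dnajc3 and Dnajb11 include 1, as given above. Those of Sdf2l1, Herpud1, Edem1, Pdia6 and Hsp90b1 stayed under 1. The part of depth was not tested by cluster.

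Within the tumour-like cells Ddit3 and Phgdh had their highest levels in 1 cluster and Psat1 and Shmt2 in another. Ddit3 stood at 128 CPM (113 to 145) in the cluster led by Defb19 and Actr3b and at 53 CPM (43 to 64.5) in the cluster led by Top2a, Lockd and Birc5, genes of dividing cells. In that dividing cluster Psat1 stood at 49.7 CPM (40.1 to 61) and Shmt2 at 29.7 CPM (22.4 to 38.7), the highest of the 8, against 16.1 CPM (12.3 to 20.7) and 7.4 CPM (4.92 to 10.7) in the cluster led by Hes1 and Id1. The dividing cluster had a median of 7216 UMIs against 4292.5 in the Hes1 cluster, and the part of depth in these gaps was not tested. Phgdh moved less, between 74.4 CPM (62.5 to 88.1) in the cluster led by Tm4sf5, Mgp and Slpi and 112 CPM (98 to 128) in the Defb19 cluster. Nupr1 was lowest in the dividing cluster, at 26.5 CPM (19.6 to 35), and highest in the Tm4sf5 cluster, at 64.6 CPM (53.5 to 77.4).

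The ER genes had their highest summed level among tumour-like clusters in the Tm4sf5 cluster. There the tumour-like cells held 1119.9 CPM (1072 to 1169.5) over the 18 genes, where the other 7 clusters ranged from 850.2 CPM (821 to 880.1) in the Hes1 cluster to 968 CPM (931 to 1007) in the cluster led by Uchl1 and Wfdc18. Manf at 168 CPM (149.8 to 188), Creld2 at 40.5 CPM (31.8 to 50.9) and Dnajc3 at 46.5 CPM (37.2 to 57.5) were each at their highest there. Hsp90b1 was highest in the dividing cluster instead, at 168 CPM (149.9 to 188). The Tm4sf5 cluster also led in Slc3a2, at 226 CPM (205 to 249), and was the lowest in Phgdh.

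The macrophage clusters differed from each other as well. The cluster led by Saa3, Fcna and Arg1 held Gdf15 at 109 CPM (88.8 to 132), against 30.8 CPM (20.3 to 44.8) in the cluster led by Cxcl2 and C1qb. Nupr1 stood at 157 CPM (133 to 184) in the Saa3 cluster and 91.3 CPM (72.4 to 114) in the Cxcl2 cluster. Hspa5 and Calr were also higher in the Saa3 cluster, at 179 CPM (153 to 207) and 269 CPM (238 to 304), against 127 CPM (104 to 152) and 189 CPM (162 to 220.4) in the Cxcl2 cluster. Ppp1r15a ran the other way, at 38.6 CPM (27.2 to 53.3) in the Saa3 cluster and 81 CPM (63.2 to 102) in the Cxcl2 cluster. The Saa3 cells were the deeper ones, with a median of 2189.5 UMIs against 1349, and the part of depth in these gaps was not tested.

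**Figure D4:**
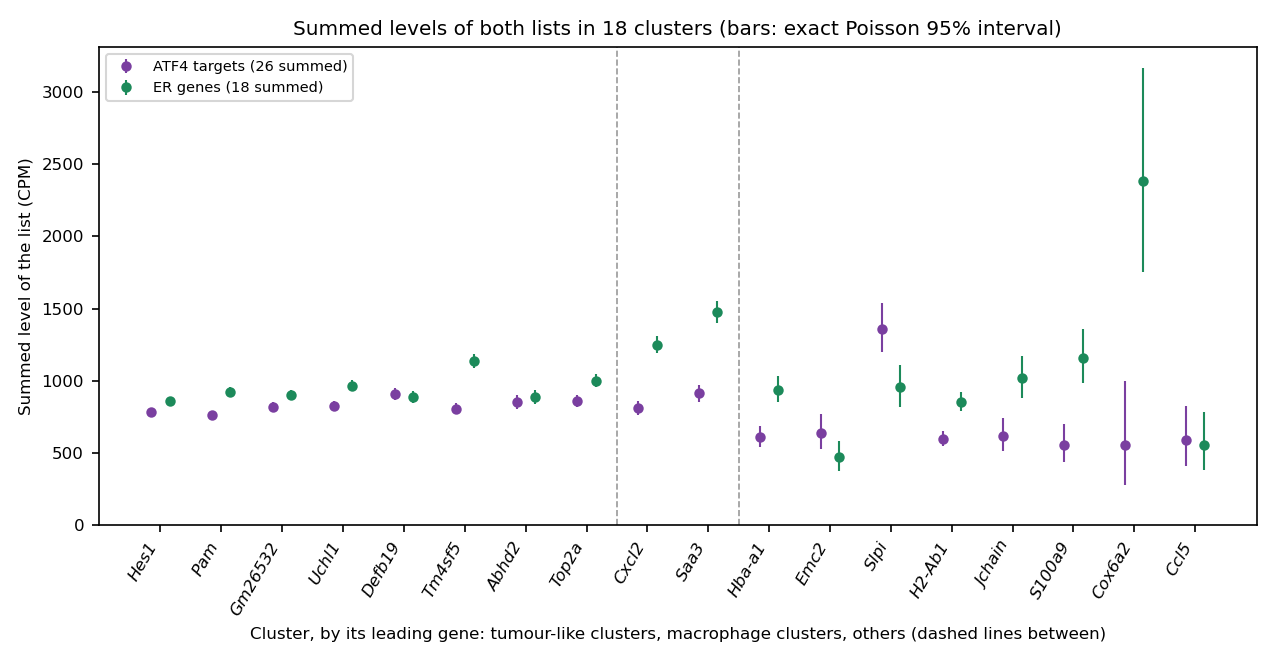
The summed CPM of the 26 ATF4 targets and of the 18 ER genes is plotted for all cells of each of 18 clusters, named by their leading gene, with exact Poisson 95% intervals. Tumour-like clusters stand left of the first dashed line and macrophage clusters between the lines; the ER sum is highest in the small Cox6a2 cluster, at 2383 CPM (1751 to 3169), and the ATF4 sum in the Slpi cluster, at 1361 CPM (1198 to 1540.1).

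Whether the ER genes vary together from cell to cell was looked at in tumour-like cells thinned to equal depth. The cells were pooled over clusters, and Hspa5 and the ER sum were both highest, among tumour-like clusters, in the Tm4sf5 cluster. The part of cluster in the ratios below was not tested. At 3000 UMIs per cell 880 cells held at least 1 UMI of Hspa5 and 2254 held none. The other 17 ER genes summed to 939.8 CPM in cells with an Hspa5 UMI and 737 CPM in cells without, a ratio of 1.28 (1.21 to 1.34). The ATF4 genes summed to 859 CPM in cells with an Hspa5 UMI and 779 CPM in cells without, a ratio of 1.1 (1.05 to 1.16). Lists from outside the ER gave 1.01 (0.981 to 1.03) for 12 immediate early genes, 1.01 (0.993 to 1.04) for 12 cytosolic heat shock genes and 0.962 (0.815 to 1.13) for 5 genes of dividing cells. Of 16 ER genes with 50 UMIs or more 3 were at least 1.5-fold higher in cells with Hspa5 (18.8%), against 2.69% of 8166 features, and 14 had a ratio over 1. 0 were 1.5-fold lower, against 2.25% of features. Of 18 ATF4 genes 1 was 1.5-fold higher and 1 lower (5.56% each).

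By gene, Pdia4 had a ratio of 1.82 (1.17 to 2.79), Edem1 of 1.67 (1.04 to 2.67) and Sdf2l1 of 1.65 (1.2 to 2.27). The abundant chaperones moved less but with narrow intervals. Hsp90b1 stood at 157 CPM in cells with an Hspa5 UMI and 109 CPM in cells without, a ratio of 1.43 (1.27 to 1.62), and Calr at 197 CPM in cells with an Hspa5 UMI and 151 CPM in cells without, a ratio of 1.31 (1.17 to 1.45). Manf, Canx and Pdia6 had 1.29 (1.15 to 1.45), 1.29 (1.1 to 1.5) and 1.49 (1.21 to 1.83). Xbp1 had 0.975 (0.821 to 1.15), and Sel1l was lower in cells with Hspa5, at 0.678 (0.477 to 0.947). The 7 counted genes with the ER stress response element shown above, Hspa5 apart, had ratios of 1.23 to 1.49 and a median of 1.29. The 8 with a window and no such element ranged from 0.678 to 1.82, with a median of 1.21. These 8 include Pdia4, Edem1 and Sdf2l1, the highest ratios, and Herpud1 and Dnajb11, which carry the shorter variant. Among the ATF4 genes, Atf5 had 1.62 (1.05 to 2.48) and Ddit3 1.18 (1.01 to 1.38), while Trib3 had 0.814 (0.537 to 1.21) and Mthfd2 0.60 (0.281 to 1.17). At 1000 UMIs per cell the ER sum had a ratio of 1.41 (1.28 to 1.55) and the ATF4 sum 1.05 (0.944 to 1.18). In macrophages at 1000 UMIs, 126 cells with and 824 without Hspa5, the ER sum had 1.18 (1.0 to 1.39) and Gdf15 2.38 (1.25 to 4.3). Gdf15 and Hspa5 were both higher in the Saa3 than in the Cxcl2 macrophage cluster, and the part of cluster here was not tested.

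**Figure D5:**
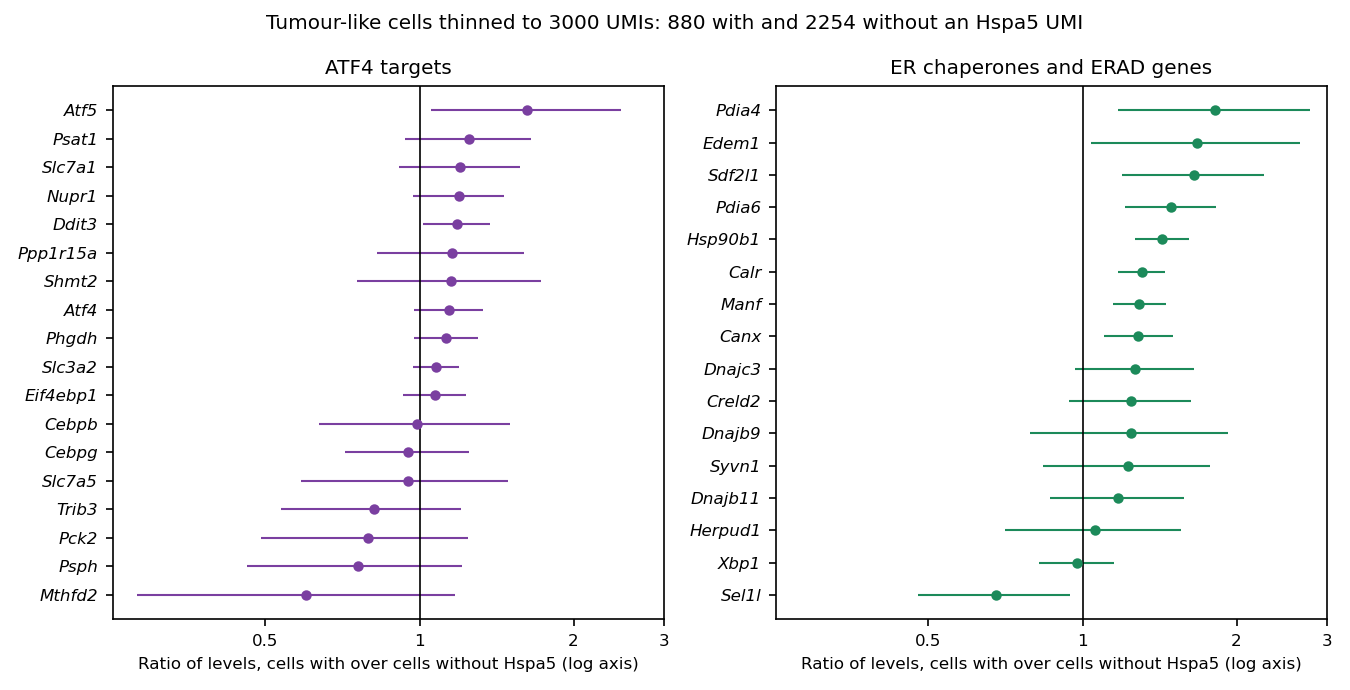
For each member with at least 50 UMIs, the ratio of its level in the 880 tumour-like cells with an Hspa5 UMI over the 2254 without is plotted on a log axis, with the exact conditional binomial 95% interval, after thinning to 3000 UMIs. Of the 16 ER genes 14 lie right of 1 and Sel1l lies left of it, at 0.678, while the ATF4 targets scatter on both sides.

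Tumour-like cells were split in the same way, pooled over clusters, on the acute ATF4 targets. At 3000 UMIs 796 tumour-like cells held a UMI of Ddit3, Trib3, Chac1 or Asns and 2338 held none. The other ATF4 genes summed to 711 CPM in cells with such a UMI and 691 CPM in cells without, a ratio of 1.03 (0.973 to 1.09). The ER sum had 1.07 (1.02 to 1.12), Hspa5 1.21 (1.06 to 1.38), Hsp90b1 1.19 (1.04 to 1.35) and Pdia4 1.99 (1.28 to 3.06). Immediate early genes had 1.14 (1.11 to 1.17) and the genes of dividing cells 0.784 (0.654 to 0.935), and their part in these ratios was not tested. At 1000 UMIs, 352 cells with such a UMI and 3258 without, the other ATF4 genes had 1.12 (0.989 to 1.27), Phgdh 1.42 (1.02 to 1.94), the ER sum 1.01 (0.905 to 1.13) and Hspa5 0.906 (0.649 to 1.24). Ddit3 gave 1669 of the UMIs of these 4 genes in tumour-like cells, against 309 of Trib3, 102 of Asns and 13 of Chac1.

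Around the members, other genes of the pathway were read from lists, with the 3 largest ratios each way named. Of 22 sensors and eIF2 pathway genes 4 were 2-fold higher in tumour-like cells (18.2%) and 1 was lower (4.55%). Their median ratio was 1.07, and of all features 33.7% were 2-fold higher and 13.2% lower. The ER-bound factor Creb3l2 had 27.6 CPM in tumour-like cells and 4.72 CPM in macrophages, 5.84-fold higher (3.05 to 12.8), and its relative Creb3 had 99.5 CPM in tumour-like cells and 33.6 CPM in macrophages, 2.96-fold higher (2.31 to 3.86). Free RNA would give 2.26 CPM of Creb3l2 and 11.7 CPM of Creb3 in macrophages. Eif2ak4, the kinase GCN2 that senses uncharged tRNA, had 119 UMIs in tumour-like cells and 2 in macrophages. Atf6b, a relative of ATF6, was 2.15-fold lower (1.34 to 3.33), Ppp1r15b, the constant partner of the eIF2 phosphatase, was 1.71-fold lower (1.17 to 2.43), and Ern1, which encodes IRE1, had 54 UMIs in tumour-like cells and 8 in macrophages, with an interval that includes 1.

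Of 30 counted other ATF4-linked genes 7 were 2-fold higher in tumour-like cells (23.3%) and 5 were lower (16.7%). The shares of all features were 33.7% and 13.2%, and the median ratio of the list was 1.34. Slc7a11, the cystine importer that supplies glutathione synthesis, had 5 UMIs in tumour-like cells and 87 in macrophages, or 0.25 CPM in tumour-like cells and 45.6 CPM in macrophages. Free RNA would give 0.162 of that CPM in tumour-like cells, so the 183-fold lower value (75.3 to 576) is that of the counts. Sesn2, an inhibitor of mTORC1 under leucine shortage, was 2.29-fold lower (1.27 to 3.9), and Wars, the tryptophan tRNA synthetase, 2.0-fold lower (1.31 to 2.98). On the other side stood Ddit4, also an inhibitor of mTORC1, with 89 CPM in tumour-like cells and 14.7 CPM in macrophages, 6.06-fold higher (4.18 to 9.15). Slc38a2, a carrier of neutral amino acids that cells raise when starved of them, had 109 CPM in tumour-like cells and 24.7 CPM in macrophages, 4.41-fold higher (3.3 to 6.02), and the lipoprotein receptor Vldlr had 90 UMIs in tumour-like cells and 2 in macrophages. In macrophages free RNA would give 3.77 CPM of Ddit4 and 8.28 CPM of Slc38a2.

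Of 34 other folding and degradation genes of the ER 7 were 2-fold higher in tumour-like cells (20.6%) and 4 were lower (11.8%). The shares of all features were 33.7% and 13.2%, and the median ratio of the list was 0.987. Erp29, a chaperone of secretory proteins, was 4.74-fold lower (4.23 to 5.3), with 49.9 CPM in tumour-like cells and 236 CPM in macrophages. The thiol proteins Ero1l and Erp44, which load and retain disulfide partners, were 2.23-fold lower (1.49 to 3.27) and 2.2-fold lower (1.71 to 2.8). The proline isomerase Fkbp11 was 3.84-fold higher (2.44 to 6.42) and Ganab, the glucosidase that trims glycans before the lectin chaperones bind, 3.78-fold higher (2.45 to 6.13). In macrophages free RNA would give 2.64 of the 9.97 CPM of Fkbp11 and 4.52 of the 11 CPM of Ganab. Fkbp14 had 91 UMIs in tumour-like cells and 3 in macrophages. Of 29 counted genes of ER import and glycosylation 0 were 2-fold higher and 2 were lower (6.9%), with a median of 0.858. Sec11c, a signal peptidase subunit, had 23.4 CPM in tumour-like cells and 163 CPM in macrophages, 6.97-fold lower (6.02 to 8.06), and Rpn2, of the oligosaccharyl transferase, was 2.51-fold lower (2.08 to 3.01). Spcs2, of the signal peptidase, was 1.98-fold lower (1.76 to 2.23), while Srp68, Ssr2 and Sec62, of the targeting and translocation machinery, were 1.77-fold, 1.55-fold and 1.49-fold higher.

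Cytosolic heat shock and immediate early genes were read beside them. Of 10 counted cytosolic heat shock genes 4 were 2-fold higher in tumour-like cells (40.0%, against 33.7% of all features) and 0 were lower (against 13.2% of all features), with a median ratio of 1.82. The small heat shock protein Hspb1 had 808 CPM in tumour-like cells and 81.9 CPM in macrophages. Free RNA alone would give 104 CPM of Hspb1 in macrophages, so no macrophage expression is read from it and the ratio of 9.87 is that of the counts. The cytosolic HSP90 gene Hsp90ab1 had 1744 CPM in tumour-like cells and 561 CPM in macrophages, 3.11-fold higher (2.92 to 3.31). Hsph1 had 130 UMIs in tumour-like cells and 3 in macrophages. Hspa8 was 1.36-fold lower (1.28 to 1.44), and Dnajb1 and Bag3 had ratios of 0.77 and 1.39 with intervals that include 1. Of 12 immediate early genes, which mark recent signalling or tissue handling, 4 were 2-fold higher (33.3%) and 2 were lower (16.7%), close to the shares of all features. Free RNA would give 53.1 of the 104 CPM of Btg2, 23 of the 75 CPM of Egr1 and 32.8 of the 88.7 CPM of Ier2 in macrophages. Btg2, Egr1 and Ier2 were 6.45-fold higher (5.61 to 7.46), 3.18-fold higher (2.7 to 3.79) and 3.08-fold higher (2.64 to 3.61), while Dusp1, Zfp36 and Junb were 3.44-fold lower (3.15 to 3.75), 3.38-fold lower (3.01 to 3.79) and 1.57-fold lower (1.45 to 1.71). These genes moved in both directions between the classes, and their part in the member ratios was not tested.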

How the data were processed

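The values deposited by the authors are raw UMI counts of a 10x Genomics assay, per the labels. Which aligner, genome build and strand setting they used is not given in the sources used here. The matrix held 737280 barcodes and 35733776 UMIs. A table of 8 bulk count columns was not used, because the column names match no sample label. Cells were kept with 500 UMIs, 200 genes and at most 15% mitochondrial UMIs. UMIs were summed per class and divided by its total (CPM). Members with at least 50 UMIs are given in full, and a ratio needed 20 UMIs over both classes. A class with 0 UMIs was set to 3 counts before a 2-fold call. The 8 genes of the class rules were left out of the 11858 features.

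Free RNA was estimated from markers foreign to a class, against barcodes of 1 to 50 UMIs. Scrublet in scanpy 1.11.5 marked 89 cells (1.38%), which were kept in the main values. Clusters came from 2000 variable genes, 30 principal components, 15 neighbours and Leiden at resolution 1 (leidenalg 0.10.2, Python 3.11.15, numpy 2.4.6, scipy 1.17.1). A split of tumour-like cells by quartiles of Hspa5 was planned and became at least 1 UMI against none, because most thinned cells had 0. The ratio and thinning code was tested on simulated counts. Gene records of GENCODE (GRCm38) overlap another on the same strand for 9 members and on the other for 18. For 2 genes of the marker lists the values are not reported here. The members and lists were chosen with earlier results of these data known. Intervals cover counting error only.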

Additional observations from a re-analysis of the deposited data

How the results depend on the processing

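The calls of the lists were recomputed under 14 other settings. The ATF4 list had 8 genes 2-fold higher in tumour-like cells, or 4 after ratios were divided by the median ratio of all features and 5 in cells of 1000 to 3000 UMIs, where 16 of the 21 genes were still counted. The ER list had 0 such genes, or 1 under the stricter class rule, 1 at a fold of 1.5 and 1 in cells of 1000 to 3000 UMIs. The ER list had 5 genes 2-fold lower in tumour-like cells, or 3 after thinning to 1000 UMIs, 3 in cells of 1000 to 3000 UMIs, 8 at a fold of 1.5 and 8 after division by the median ratio. Division by the median ratio put 22.8% of all features 2-fold higher and 19.1% lower in tumour-like cells. The other settings, among them removal of Scrublet-marked cells and of free RNA, kept each of these counts within 1.5 times. The median-ratio, depth-range and large-cluster settings and the 3000-UMI splits were chosen after seeing the data. All values come from 1 library that holds both classes, so spread between mice cannot be estimated. Handling that acts differently on the 2 classes cannot be told apart from a class difference. Macrophage counts under 20 UMIs limit Trib3, Asns, Atf5, Phgdh, Psph, Shmt2, Slc7a1, Slc7a5, Mthfd2, Pck2, Aldh18a1, Hyou1 and Pdia4. The edgeR comparison of deferiprone with vehicle and its alternatives were not run. No paired analysis was possible because the bulk columns carry no replicate number that a label matches.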

Other observations

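The highest and the lowest summed ER level and the highest summed ATF4 level lay outside the 10 large clusters, on few UMIs. Some of these cells met the tumour-like rule, among them 37 of the 53 cells of the Slpi cluster, 44 of the 165 of the Emc2 cluster and 30 of the 445 of the H2-Ab1 cluster. Outside the large clusters as well, 174 cells were led by the red cell genes Hba-a1 and Hba-a2. Of these 174 cells 49 met the tumour-like rule and 21 the macrophage rule. In 22 cells led by Cox6a2, Bst2 and Siglech, genes of plasmacytoid dendritic cells, which are built to secrete interferon, the 18 ER genes summed to 2383 CPM (1751 to 3169) from 47 UMIs. Manf made up 14 of these UMIs, or 709.8 CPM (388 to 1191). The 26 ATF4 genes had 11 UMIs there, or 558 CPM (278 to 998). The 192 cells led by Jchain and Cd79a, with the B and plasma cell genes Cd79b, Ms4a1 and Mzb1, had an ER sum of 1019 CPM (879 to 1175), with Herpud1 at 91.6 CPM (53.4 to 147). The 445 cells led by H2-Ab1 and Cd74, with dendritic cell genes, had an ER sum of 853 CPM (789.6 to 920.0) and an ATF4 sum of 597 CPM (545 to 654), with Herpud1 at 72.5 CPM (54.9 to 93.9). The 53 cells led by Slpi, Mgp and Col1a2 had an ATF4 sum of 1361 CPM (1198 to 1540.1), of which Nupr1 gave 126 of 251 UMIs. The 165 cells led by Emc2 and Pir, a cluster left unnamed with a median of 0.189% mitochondrial UMIs, had the lowest ER sum, 472 CPM (377 to 583), with Phgdh at 117 CPM (72.1 to 178).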
